A study of Mus musculus with 24 samples.

Results

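Neurog1, Neurog2, Neurod1, Neurod2, Neurod4, Neurod6 and Bhlhe22 are neurogenic and neuronal basic helix-loop-helix (bHLH) genes, taken here by name, 7 of 21938 protein-coding genes of mouse build mm10. At each gene every MYT1L site in the gene body or within 20 kb of it was collected. MYT1L, a zinc finger transcription factor of neurons, had its chromatin binding measured by CUT&RUN, where DNA next to the protein is cut out by an antibody-guided nuclease and sequenced. The data used were 4 lists of bound sites, each site given by its start and end. They came from wild-type (WT) mouse cortex at E18.5, from prefrontal cortex of WT pups at P0, from prefrontal cortex of adult heterozygous Myt1l mutants (HET) and from that of adult WT mice, with 14477, 40698, 56937 and 32145 sites. The labels give the strain as C57BL/6J and the sex as unknown, whereas the methods describe the mutant line on C57BL/6N, and the adults were 3 months old. By the study's methods the HET mice carried 1 copy of a CRISPR-induced germline frameshift in the first protein-coding exon of Myt1l, in all cells, with the other copy intact. Each list merged 3 MYT1L libraries, and 3 IgG libraries accompanied each group. The labels name cortex at E18.5 and prefrontal cortex at the other ages, and the methods name prefrontal cortex throughout. E18.5 and P0 were sequenced in run 1 and both adult groups in run 2, so age and run cannot be told apart between the younger and the adult lists.

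No value below has a replicate error, since the lists hold no value per library, and sequencing depth was unknown. A gene with no site in a list may have sites that were not detected. The median site width was 593 bp at E18.5, 276 bp at P0, 108 bp in adult HET and 167 bp in adult WT. The files hold no expression, so the labelled tissue was not checked against markers.

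Proneural bHLH proteins bind DNA as dimers with E proteins, at a short palindrome called the E-box (CANNTG, where N is any base). The neurogenins commit cortical progenitors to the neuronal fate and switch on Neurod genes, which act later, in newborn and maturing neurons. Id proteins and Hes proteins such as Hes1 oppose them, by capturing E proteins or by repressing proneural genes.

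Of the 58 sites at the 7 genes, 11 were from E18.5, 33 from P0, 6 from adult HET and 8 from adult WT. The following sequences are some of the stretches that E18.5 and P0 sites had in common, the distal ones chosen after their values were seen. They are given 5′ to 3′ on the strand of the gene named, as read from the mm10 reference, with AAAGTT (the core of the MYT1L motif, on either strand) and every CANNTG in capitals.
Neurog2, 7.10 kb before the start, chr3:127625883-127626182, plus strand: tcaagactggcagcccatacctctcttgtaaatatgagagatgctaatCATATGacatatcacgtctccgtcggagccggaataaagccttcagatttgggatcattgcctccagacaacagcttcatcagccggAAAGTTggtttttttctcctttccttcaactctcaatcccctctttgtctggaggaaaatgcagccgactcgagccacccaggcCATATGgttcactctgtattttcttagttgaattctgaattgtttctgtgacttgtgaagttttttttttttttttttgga
Neurod1, upstream of the start, chr2:79456752-79457051, minus strand: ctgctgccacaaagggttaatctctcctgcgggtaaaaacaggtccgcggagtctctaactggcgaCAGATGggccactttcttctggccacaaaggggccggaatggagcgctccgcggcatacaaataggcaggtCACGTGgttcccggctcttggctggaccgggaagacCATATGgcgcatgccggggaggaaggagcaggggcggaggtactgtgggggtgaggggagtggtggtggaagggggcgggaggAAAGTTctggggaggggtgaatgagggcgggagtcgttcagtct
Neurod1, 5.90 kb after the start, chr2:79450698-79450997, minus strand: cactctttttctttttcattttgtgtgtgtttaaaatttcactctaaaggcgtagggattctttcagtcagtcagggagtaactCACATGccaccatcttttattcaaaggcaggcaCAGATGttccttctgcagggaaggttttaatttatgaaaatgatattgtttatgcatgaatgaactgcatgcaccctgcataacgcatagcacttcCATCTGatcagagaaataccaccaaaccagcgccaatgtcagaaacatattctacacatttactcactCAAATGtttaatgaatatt
Neurod2, upstream of the start, chr11:98329649-98329725, minus strand: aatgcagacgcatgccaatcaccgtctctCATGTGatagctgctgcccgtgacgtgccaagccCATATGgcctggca
Neurod6, upstream of the start, chr6:55681264-55681563, minus strand: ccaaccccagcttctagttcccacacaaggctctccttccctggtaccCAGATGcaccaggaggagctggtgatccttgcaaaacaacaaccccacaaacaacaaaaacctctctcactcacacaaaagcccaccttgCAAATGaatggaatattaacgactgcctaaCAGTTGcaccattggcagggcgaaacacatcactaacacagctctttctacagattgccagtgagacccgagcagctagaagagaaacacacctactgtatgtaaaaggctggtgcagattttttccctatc
Neurod6, 2.39 kb before the start, chr6:55683500-55683799, minus strand: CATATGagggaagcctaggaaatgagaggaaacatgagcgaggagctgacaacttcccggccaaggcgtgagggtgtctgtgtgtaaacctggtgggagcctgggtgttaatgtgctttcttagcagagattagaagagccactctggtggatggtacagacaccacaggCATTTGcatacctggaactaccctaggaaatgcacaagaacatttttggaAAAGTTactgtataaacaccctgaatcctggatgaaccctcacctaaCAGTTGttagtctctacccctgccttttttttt
Bhlhe22, 4.32 kb before the start, chr3:18049724-18049990, plus strand: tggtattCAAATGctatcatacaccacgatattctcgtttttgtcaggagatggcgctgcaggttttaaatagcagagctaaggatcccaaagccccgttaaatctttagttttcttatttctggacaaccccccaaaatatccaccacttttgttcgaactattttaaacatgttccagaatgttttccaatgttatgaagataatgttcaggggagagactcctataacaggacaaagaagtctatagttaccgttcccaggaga

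Of the stretches printed, the 3 that hold AAAGTT are those of Neurog2, of the Neurod1 promoter and of Neurod6 2.39 kb before its start. Shared sites not printed also held AAAGTT, at Neurod2 9.56 kb before the start, over the Neurod6 coding exon and at the Bhlhe22 promoter. The Neurod6 promoter site held 1 AAAGTT at E18.5 and at P0, outside the bases printed. As the distal stretches were chosen, the counts here are not a share of all shared sites. The Neurod1 stretch 5.90 kb after the start holds 4 E-boxes, of which 2 are of the form CAGATG or its complement CATCTG. The stretches just upstream of Neurod1 and Neurod6 hold 3 E-boxes each, 1 of them of that form, and the 77 bases upstream of Neurod2 hold 2, neither of that form. The whole P0 promoter site of Neurod2 (393 bp) held 1 of that form. In the RefSeq promoter table for mm10, with 250 bases before and 50 after each start, 14.1% of 32851 promoters hold AAAGTT, 72.3% hold CANNTG, 17.2% hold CAGATG and 16.3% hold CAGCTG, both of which are forms of CANNTG. Of the 6 bHLH genes in that table, 5 have a CANNTG in the promoter, Neurod1 alone has AAAGTT and Neurod2 alone has CAGATG. The gene without an entry is Bhlhe22. A match of letters is a description and not a binding site.

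**Figure D1:**
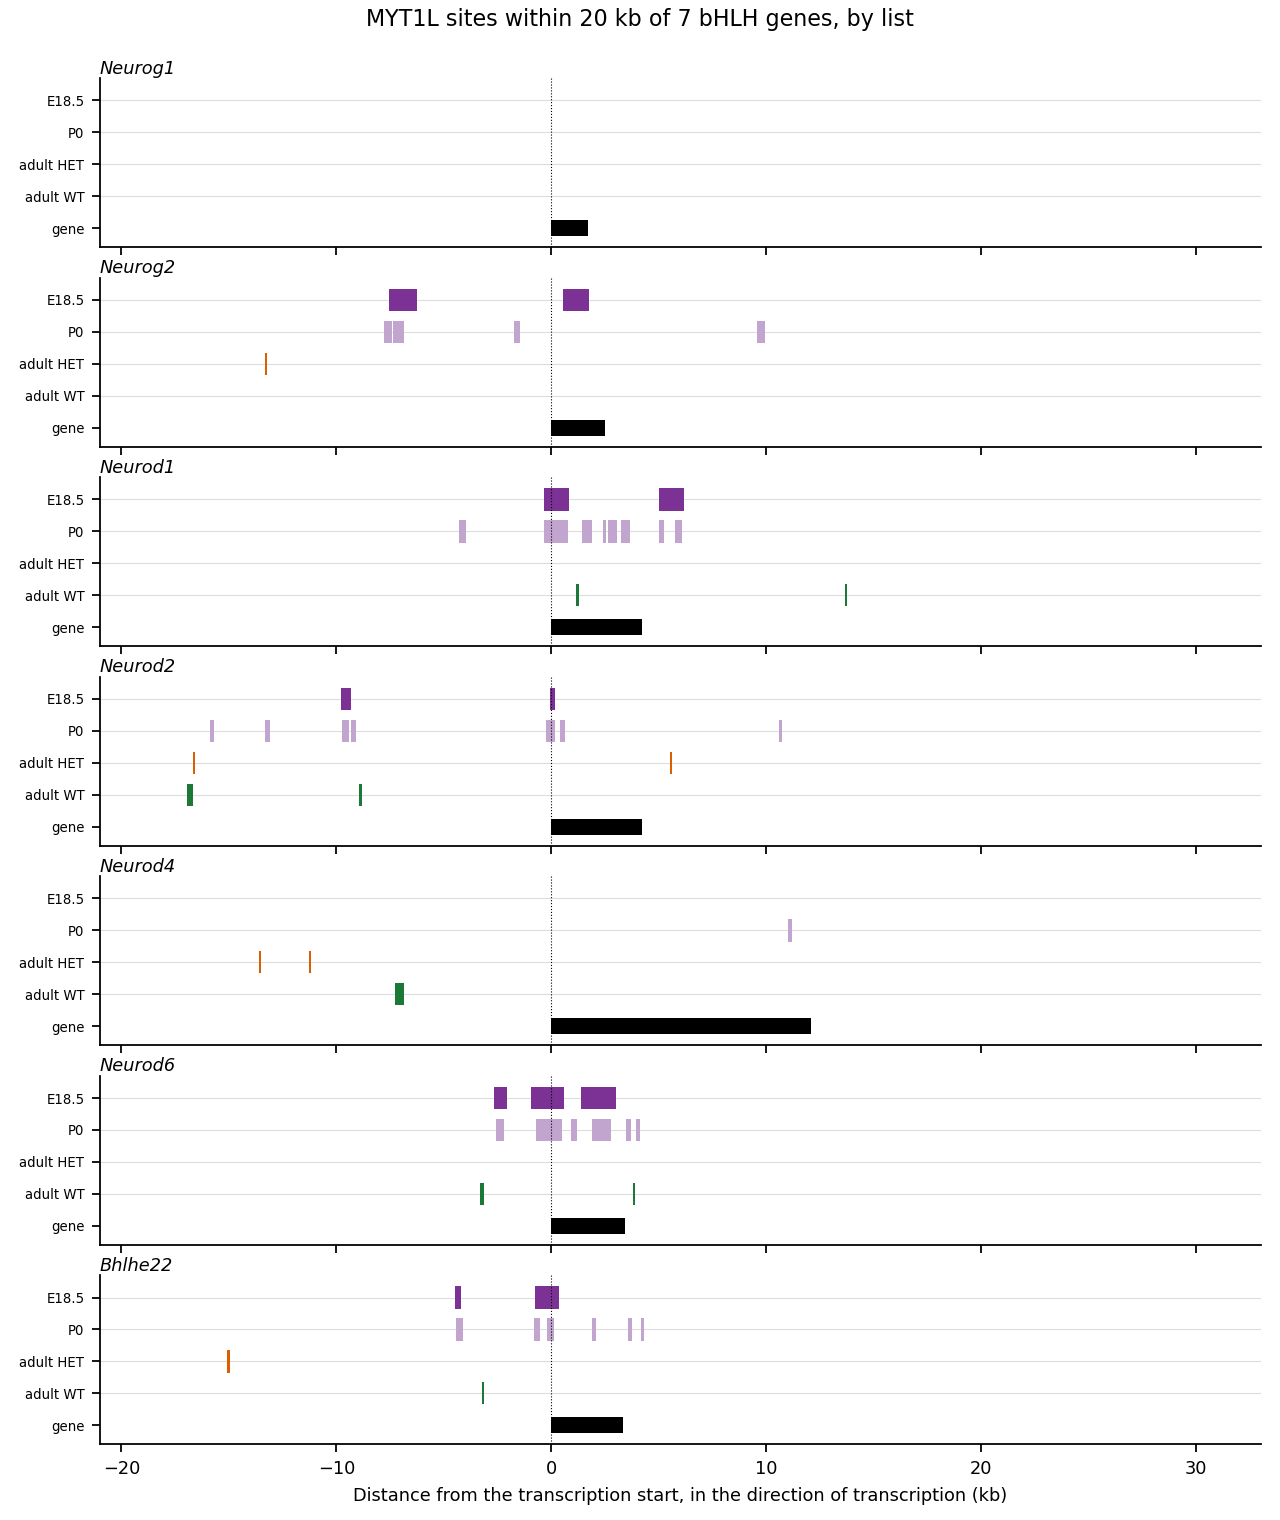
Position of each MYT1L site (coloured bars, to scale) at the 7 bHLH genes, as distance from the transcription start in kb along the direction of transcription, with 1 row per list and the gene body in black. E18.5 and P0 sites lie over or close to the starts of Neurod1, Neurod2, Neurod6 and Bhlhe22, Neurog1 has no site in any list, and no adult bar overlaps an E18.5 or P0 bar.

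At E18.5, 5 of the 7 genes had a site in the gene body plus 20 kb, against 49.0% of all protein-coding genes. At P0 it was 6 of 7, against 69.1%. In adult HET it was 4 of 7, against 68.9%, and in adult WT 5 of 7, against 54.1%. Short genes have short windows, and 6 of the members are shorter than 10 kb, Neurod4 being the exception at 12089 bp. Among the 7774 protein-coding genes of up to 10 kb, 36.2% had a site at E18.5, 51.8% at P0, 56.2% in adult HET and 39.7% in adult WT. The members' shares were 71.4% at E18.5, 85.7% at P0, 57.1% in adult HET and 71.4% in adult WT. They lay above both backgrounds at E18.5, at P0 and in adult WT. In adult HET they lay below all genes and about level with the short genes. With 7 genes these are descriptions and were not tested.

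Nearer the starts, 5 of the 7 genes had a site within 5 kb at E18.5 and 5 at P0, the study's definition of a target gene, against 30.0% and 45.9% of all protein-coding genes. They were the same 5 genes at both ages, Neurog2, Neurod1, Neurod2, Neurod6 and Bhlhe22. Adult HET had 0 of 7, against 23.4%, and adult WT had 3 of 7 (Neurod1, Neurod6 and Bhlhe22), against 20.1%. A site overlapped the promoter, 1 kb before to 100 bp after the start, at 4 of 7 genes at E18.5 and at the same 4 at P0, against 25.3% and 36.1% of all protein-coding genes. These were Neurod1, Neurod2, Neurod6 and Bhlhe22. No member had a promoter site in adult HET or adult WT, where 7.02% and 10.3% of all protein-coding genes had one.

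**Figure D2:**
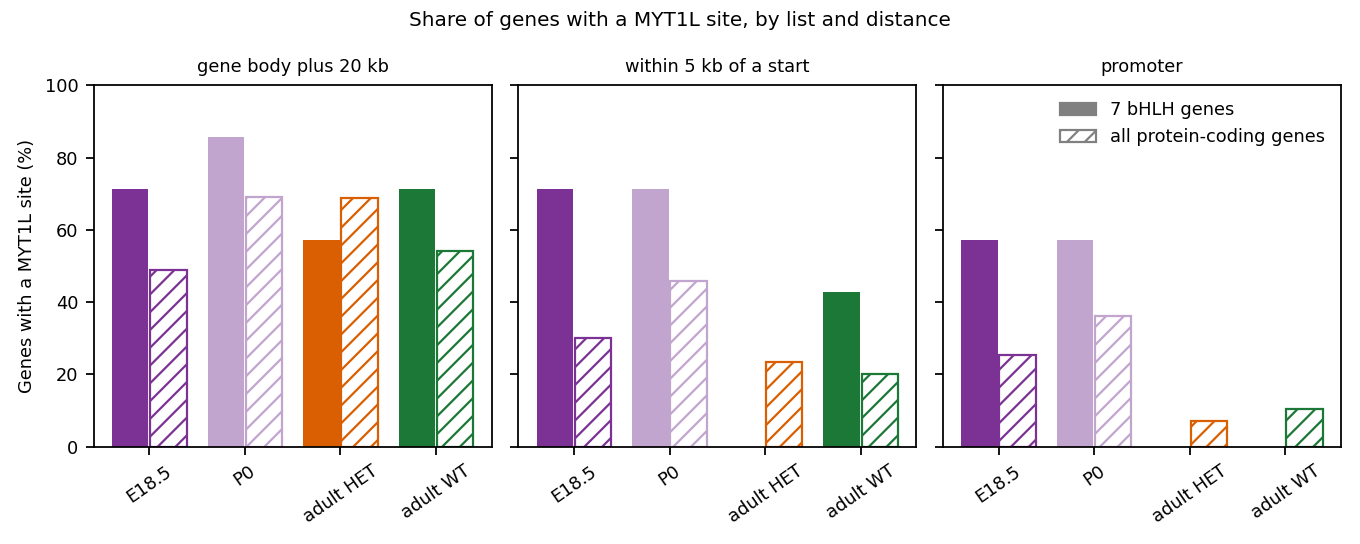
Percentage of genes with at least 1 MYT1L site in the gene body plus 20 kb (left), within 5 kb of a start (middle) and in the promoter (right), for the 7 bHLH genes (filled) and all protein-coding genes (hatched), by list. The members had promoter sites at E18.5 and P0 (4 of 7 each) and none in the adult lists.

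The neurogenins act first in the lineage. Neurog1 (chr13:56250478-56252163, minus strand) had no site in its window in any list. Its nearest site lay 225 kb from the gene body at E18.5, 27.4 kb at P0, 58.6 kb in adult HET and 64.9 kb in adult WT. Its region of 500 bp on each side of the start had a GC content of 68.9%, the highest of the 7 genes.

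Neurog2 (chr3:127633135-127635631, plus strand), which specifies glutamatergic neurons of the cortex, had 2 sites at E18.5, 4 at P0, 1 in adult HET and 0 in adult WT. They covered 2538, 1554, 114 and 0 bp. One E18.5 site of 1348 bp, centred 6.90 kb before the start in intergenic DNA, overlapped 2 P0 sites of 360 and 534 bp that were centred 7.61 and 7.10 kb before the start. The other E18.5 site, of 1190 bp, lay over the Neurog2 coding exon (chr3:127633690-127634879). It was the only one of the 11 E18.5 sites without an overlapping P0 site, the nearest P0 site being 2015 bp away. The remaining P0 sites were centred 1.60 kb before and 9.75 kb after the start. The single adult HET site (114 bp) was 13.28 kb before the start, and the nearest adult WT site was 96.8 kb from the gene body.

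The Neurod genes act downstream. Neurod1 (chr2:79452521-79456751, minus strand), a neuronal differentiation factor that also acts in the pancreas, had 2 sites at E18.5, 9 at P0, 0 in adult HET and 2 in adult WT. They covered 2328, 3455, 0 and 261 bp. In the P0 list, 99.0% of the 7774 genes of up to 10 kb had fewer covered bases. A site of 1137 bp at E18.5 and one of 1143 bp at P0 spanned the start and the promoter. The second E18.5 site (1191 bp), centred 5.58 kb after the start in an intron of Cerkl, overlapped P0 sites of 324 and 241 bp. Cerkl, a ceramide kinase-like gene, and the non-coding Gm26755 lie across this region, so these sites cannot be ascribed to Neurod1 alone. The 6 other P0 sites were of 152 to 442 bp. Of these, 4 lay over the gene, 1.65 to 3.47 kb after the start, and 2 lay 4.05 and 4.25 kb before it. One adult WT site (163 bp) lay in the Neurod1 intron, 124 bp from a P0 site and 331 bp from an E18.5 site, and the other (98 bp) lay 13.71 kb after the start. The nearest adult HET site was 32.9 kb away.

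Neurod2 (chr11:98325415-98329648, minus strand), active in maturing cortical projection neurons, had 2 sites at E18.5, 7 at P0, 2 in adult HET and 2 in adult WT. They covered 702, 1753, 180 and 409 bp. At the promoter the sites were of 265 bp at E18.5 and 393 bp at P0, and the E18.5 one was narrower than all but 3.49% of its list. A second pair of overlapping sites, 437 bp at E18.5 and 331 bp at P0, was centred 9.56 kb before the start, where the nearest protein-coding start was that of Ppp1r1b, which encodes the striatal signalling protein DARPP-32. Further sites occurred on that side in 3 lists. P0 had them 9.22, 13.20 and 15.81 kb before the start, adult HET 16.61 kb and adult WT 8.88 and 16.81 kb before it. On the other side, P0 had sites of 232 and 147 bp centred 0.50 and 10.65 kb after the start. The other adult HET site (97 bp) was centred 5.58 kb after the start, 1.30 kb from the gene body. The adult HET site of 83 bp and the adult WT site of 263 bp at the far end were 29 bp apart without overlapping, the closest pair of HET and WT sites at the 7 genes.

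Neurod4 (chr10:130268152-130280240, minus strand), a proneural factor of early neurons, had no site at E18.5, 1 at P0, 2 in adult HET and 1 in adult WT. They covered 0, 199, 166 and 406 bp. The P0 site lay in the 3′ UTR, 11.10 kb after the start. The adult HET sites (94 and 72 bp) lay 11.22 and 13.55 kb before the start, and the adult WT site of 406 bp, the widest adult site at the members, 7.05 kb before it. The nearest E18.5 site was 1355 kb from the gene body. Neurod4 was the one gene with more covered bases in both adult lists than at E18.5.

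Neurod6 (chr6:55677822-55681263, minus strand), a marker of postmitotic glutamatergic neurons of the cortex, had the most covered bases of the 7 genes summed over the lists (7292 bp). It had 3 sites at E18.5, 6 at P0, 0 in adult HET and 2 in adult WT, which covered 3771, 3195, 0 and 326 bp. Of the short genes, 98.9% had fewer covered bases at E18.5 and 98.7% at P0. The E18.5 sites were of 1628 bp over the coding exon, 1535 bp over the promoter and 608 bp centred 2.38 kb before the start, the last in the promoter of the non-coding gene Gm3279. Each overlapped 1 P0 site, of 900, 1189 and 389 bp. The P0 list added sites of 311 bp in the intron and of 246 and 160 bp beyond the gene end. An adult WT site of 133 bp lay between the last pair, 71 and 40 bp from them, and the other (193 bp) lay 3.23 kb before the start. The nearest adult HET site was 39.1 kb from the gene body.

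Bhlhe22 (chr3:18054174-18057517, plus strand) encodes a bHLH repressor that shapes the identity and wiring of cortical neurons. It had 2 sites at E18.5, 6 at P0, 1 in adult HET and 1 in adult WT, covering 1415, 1462, 138 and 131 bp. The E18.5 promoter site of 1109 bp overlapped 2 P0 sites of 280 and 343 bp, and an E18.5 site of 306 bp centred 4.34 kb before the start overlapped a P0 site of 354 bp. The 3 other P0 sites, of 158, 197 and 130 bp, lay in the 3′ UTR and downstream of the gene. The adult HET site lay 15.02 kb and the adult WT site 3.18 kb before the start.

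**Figure D3:**
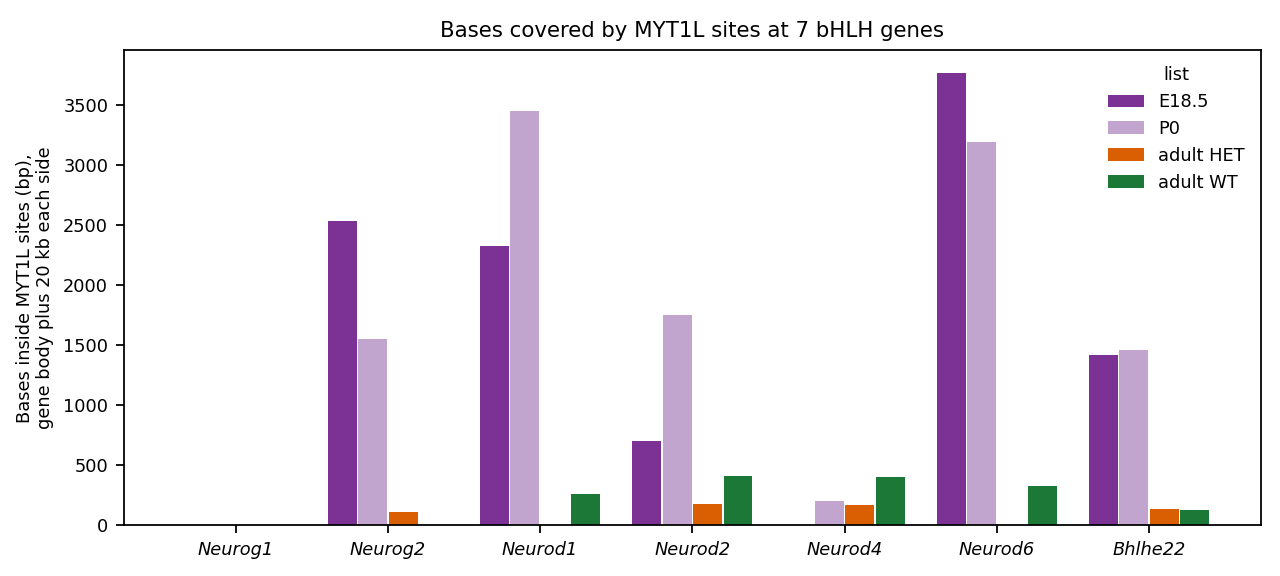
Bases inside MYT1L sites (bp) in the gene body plus 20 kb on each side of each bHLH gene, 1 bar per list. Neurod6 has the highest bar at E18.5 (3771 bp) and Neurod1 at P0 (3455 bp), and no adult bar exceeds 409 bp.

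Over the 7 windows together (312 kb), sites covered 3.45% of the bases at E18.5 and 3.73% at P0, which was 9.14 and 6.87 times the share of the whole genome. Windows of genes are richer in sites than the genome, and the closer comparison, with the windows of short protein-coding genes, gave 3.37 times at E18.5 (1.03% of their bases) and 3.25 times at P0 (1.15%). In adult HET the members' share was 0.192%, 0.714 times that of the short genes, and in adult WT it was 0.492%, 1.50 times theirs. Neurod6 supplied 3771 of the 10754 covered bases at E18.5, and Neurog1 and Neurod4 none.

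Width separated the lists at these genes as it did over the whole lists. The members' sites had a median of 1137 bp at E18.5 (265 to 1628 bp), 280 bp at P0 (130 to 1189 bp), 95.5 bp in adult HET (72 to 138 bp) and 154 bp in adult WT (98 to 406 bp). At E18.5, 8 of 11 were at or above the median of their list, which at P0 held for 18 of 33, in adult HET for 2 of 6 and in adult WT for 3 of 8. Every E18.5 site at the members was wider than every adult HET site. The E18.5 sites of Neurod2 and the distal one of Bhlhe22 were the 3 narrower than the list median.

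**Figure D4:**
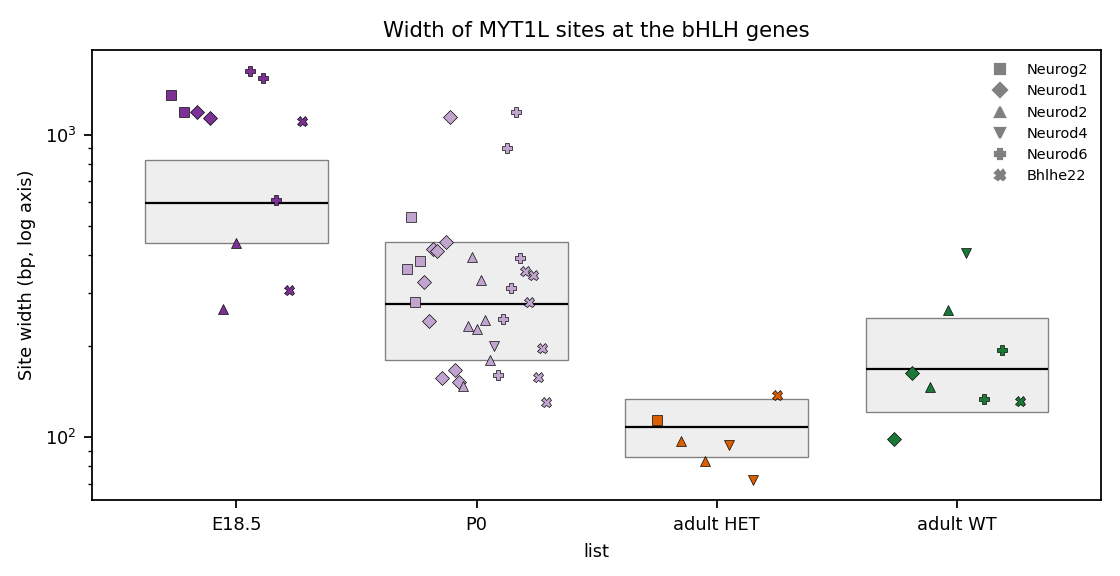
Width of each MYT1L site at the bHLH genes (points, in bp on a log axis; the marker shape gives the gene), by list, with the median (line) and quartiles (grey box) of all sites of that list. Most E18.5 points lie above the list's upper quartile, whereas the P0 and adult points spread around their medians.

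Sites at the members were next compared between lists, counting 1 shared bp as overlap. Of the 11 E18.5 sites, 10 overlapped a P0 site (90.9%, exact 95% binomial interval 58.7 to 99.8%), against 88.3% of all E18.5 sites. Of the 33 P0 sites, 13 overlapped an E18.5 site (39.4%, 22.9 to 57.9%), against 34.8% of all P0 sites. Neighbouring sites at a gene are not independent trials, and the 13 shared P0 sites lay in 10 places. The intervals are therefore a guide only, and these shares were not tested against those of the lists. The 13 shared P0 sites had a median width of 360 bp and the 20 others 213 bp, and over the whole P0 list these medians were 472 and 213 bp. A single E18.5 site overlapped 2 P0 sites in 3 places, 7 kb before Neurog2, 5.58 kb after the Neurod1 start and at the Bhlhe22 promoter. Over the whole E18.5 list, 9.36% of sites overlapped 2 or more P0 sites.

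None of the 14 adult sites at the members overlapped an E18.5 or P0 site. For the 6 adult HET sites this was 0 of 6 in the P0 list (interval up to 45.9%), against 3.42% of all HET sites. For the 8 adult WT sites it was 0 of 8 (up to 36.9%), against 10.4% of all WT sites. Adult HET and adult WT shared no site at these genes either, where 4.90% of all HET sites overlapped a WT site and 8.38% of all WT sites a HET site. With 6 and 8 sites, intervals this wide could not set 0 apart from such shares, so nothing is concluded from them. In the other direction, 0 of 33 P0 sites overlapped an adult WT site (up to 10.6%), against 7.99% of all P0 sites. For adult HET the share of all P0 sites was 4.65%. Of the 11 E18.5 sites, 0 overlapped an adult site (up to 28.5% for each list). Over all E18.5 sites, 18.4% overlapped an adult WT site and 10.2% an adult HET site. Within 500 bp of a P0 site lay 3 of the 8 adult WT sites (37.5%), at Neurod1, Neurod2 and Neurod6, against 13.2% of all WT sites. P0 sites were also denser in the members' windows, 106 per Mb against 30.6 in the windows of short genes and 15.4 over the genome. The difference in closeness was not tested. The nearest P0 site to any adult HET site at the members was 671 bp away. Joining overlapping sites gave 45 separate places, of which 10 were found at E18.5 and P0, 20 at P0 alone, 1 at E18.5 alone, 6 in adult HET alone and 8 in adult WT alone.

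The core motif AAAGTT was present within 75 bp of the midpoint in 1 of 11 member sites at E18.5 (15.1% of all sites of the list), 8 of 33 at P0 (14.6%), 0 of 6 in adult HET (14.5%) and 3 of 8 in adult WT (13.7%). The E18.5 site was the one 2.38 kb before Neurod6. The P0 sites were 3 at Bhlhe22 and 1 each at Neurog2, Neurod1, Neurod2, Neurod4 and Neurod6, and the adult WT ones lay at Neurod2, Neurod6 and Bhlhe22. Read over whole sites, 8 of 11 E18.5 member sites held AAAGTT, against 44.3% of all, beside their larger median width of 1137 bp against 593 bp. An E-box lay within 75 bp of the midpoint in 6 of 11 member sites at E18.5, 18 of 33 at P0, 3 of 6 in adult HET and 3 of 8 in adult WT. Over all sites these shares were 53.4, 53.2, 52.5 and 55.9%. The form CAGATG, preferred by neurogenins and Neurod factors, lay within 75 bp of the midpoint in 1 of 11 member sites at E18.5 (13.7% of all sites), 5 of 33 at P0 (12.9%), 0 of 6 in adult HET (10.8%) and 1 of 8 in adult WT (14.4%). Over whole sites, where the E18.5 member sites were wider than their list as given above, the counts were 7 of 11 at E18.5 (39.8% of all), 11 of 33 at P0 (23.5%), 0 of 6 in adult HET (8.36%) and 1 of 8 in adult WT (18.4%). The Neurod6 coding exon and promoter sites held 4 each at E18.5.

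Starts of the members differed in base composition. GC content within 500 bp of the start was 68.9% at Neurog1, 63.1% at Neurog2, 59.3% at Neurod2, 53.7% at Neurod1, 51.1% at Bhlhe22, 47.0% at Neurod4 and 41.9% at Neurod6, with a median of 54.8% over all protein-coding genes. Covered bases did not follow this order: Neurod6, the most covered, had the lowest GC content and Neurog1, with none, the highest, but Neurog2 was the third most covered and Neurod4 the second least. The most covered gene, Neurod6, was set beside 7768 other short genes by the mean absolute log2 ratio of covered bases over the 4 lists, with 100 bp added. Nearest to it were Mycl (0.12), Cks1b (0.16) and Cops6 (0.18). Each had 0 bp in adult HET, which is part of the choice, since that list entered the ratio.

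The bHLH network around the members was described in the same window. In it, 49.0% of all protein-coding genes had a site at E18.5, 69.1% at P0, 68.9% in adult HET and 54.1% in adult WT. Among those of up to 10 kb the shares were 36.2, 51.8, 56.2 and 39.7%. The groups below were not matched for gene length. All 3 E proteins, the dimer partners, had a site at E18.5, P0 and in adult WT, and 2 of 3 in adult HET. Tcf4, a long gene, had 32 sites at E18.5, 81 at P0, 17 in adult HET and 19 in adult WT, Tcf12 had 4, 12, 7 and 5 and Tcf3 had 3, 3, 0 and 2. Among 10 other bHLH genes of neural lineages, not all of them activators, 2 had a site at E18.5, 7 at P0, 4 in adult HET and 1 in adult WT. In that group Bhlhe23 (1855 bp over the 4 lists) and Nhlh1 (1032 bp) had the most covered bases. Bhlhe23 had 2 sites at E18.5 and 3 at P0, Nhlh1 had 1 at each of these ages, and neither had a site in an adult list.

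The group of helix-loop-helix inhibitors was taken as Id1, Id2, Id3, Id4, Hes1, Hes5, Hes6, Hey1, Hey2 and Heyl. They were taken by family and not by the role of each gene, so a member such as Hes6 need not be an inhibitor. Of these 10 genes, 6 had a site at E18.5, 9 at P0, 6 in adult HET and 4 in adult WT. Id2, which sequesters E proteins, led with 6702 bp in 4 sites at E18.5, 7 at P0, 1 in adult HET and 1 in adult WT, followed by Id4 (3357 bp) and the Notch effector Hes1 (2828 bp). Of 16 known targets of neurogenic bHLH factors, 14 had a site at E18.5 (87.5%, against 49.0% of all protein-coding genes), 16 at P0 (100%, against 69.1%), 8 in adult HET (below the 68.9% of all genes) and 9 in adult WT (56.2%, against 54.1%). That list includes Neurod1, Neurod4 and Neurod6 themselves. It also includes Hes6 and Nhlh1, counted above in the Id, Hes and Hey group and among the other bHLH genes. After Neurod6, the targets with the most covered bases were Tbr1 (6895 bp), a transcription factor of deep-layer neurons, with 9 sites at P0, and Neurod1 (6044 bp). The median covered bases of the targets were 1088 bp at E18.5, 1804 bp at P0, 43.5 bp in adult HET and 164 bp in adult WT, against 0, 467, 123 and 101 bp over all protein-coding genes.

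**Figure D5:**
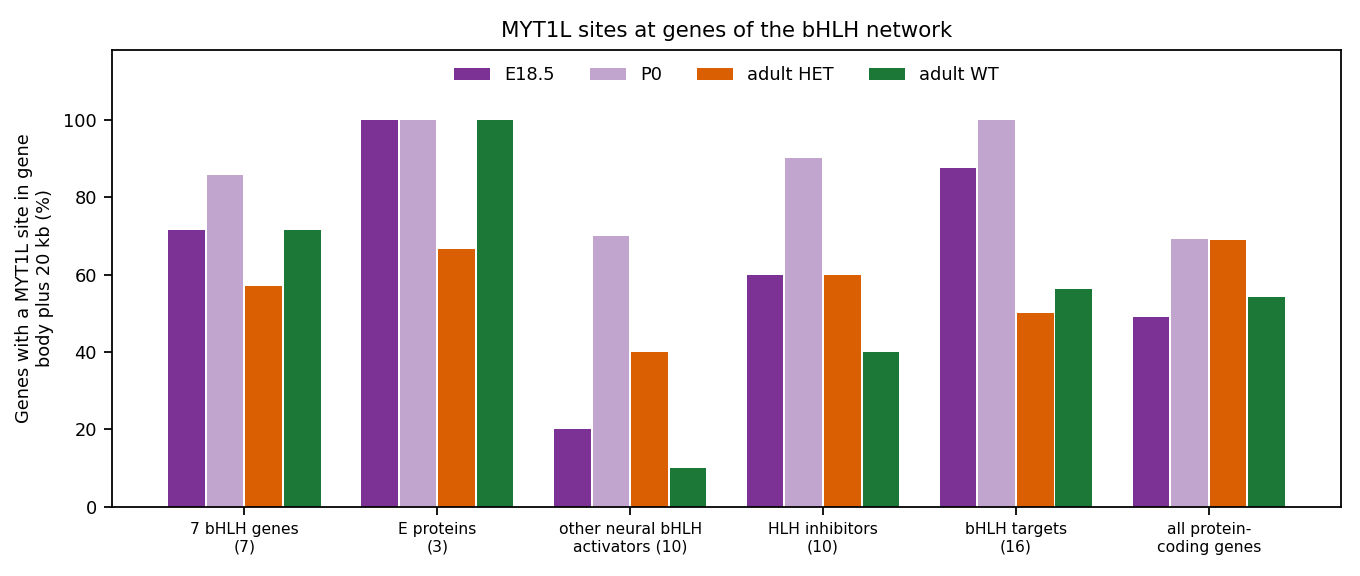
Percentage of genes with a MYT1L site in the gene body plus 20 kb for the 7 bHLH genes, 4 groups of the bHLH network (number of genes in brackets) and all protein-coding genes, 1 bar per list. All 16 targets and all 3 E proteins have a site at P0. The other neural bHLH genes, labelled activators in the figure, have the fewest at E18.5 (2 of 10) and in adult WT (1 of 10).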

How the data were processed

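MYT1L CUT&RUN libraries, 3 per group, and 12 IgG libraries were described in the labels, and some adult MYT1L libraries carry Myt2l or Myt3l in their titles (4 in all). They were grouped as MYT1L because their descriptions name the Myt1l list. The labels do not say whether libraries came from separate animals, while the methods give a cell number per animal and a split of each suspension between antibodies. The authors ran nf-core/cutandrun on build mm10 and deposited positions, the start and end in bp of each site, merged over the MYT1L libraries of a group, with no height, score or p-value. Not given in the sources used here were the aligner, peak caller, threshold and use of IgG. The IgG libraries are not analysed here.

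Sites were counted where they overlapped the gene body or 20 kb on each side, in GENCODE basic annotation on GRCm38.p6, the assembly of mm10. Positions count from 1, and site distances are those of the midpoint. A site was placed by its midpoint in promoter, exon, intron or intergenic DNA. Overlap needed 1 bp, with exact Clopper-Pearson intervals at 95% that cover counting error only. They take sites as independent, which neighbouring sites at a gene are not. Motifs were read on both strands. No test between groups was run, as each group is 1 list. The main counts are given beside the share over all genes or sites. Alternatives were windows of 5 and 50 kb, a width filter, other overlap rules, a 1 kb distance to a start and other motif windows. Interval functions were checked on simulated data. Python 3.11.15, numpy 2.4.6, scipy 1.17.1 and matplotlib 3.10.9 were used.

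The members, the gene lists and the rules were chosen with earlier results of these data known. All 7 genes were named with their sites, of each pathway list the 3 genes with the most covered bases, the gene nearest to a site where it was not the member, and the 3 genes most like the member with the most covered bases. A result that this rule would name is not reported here. Sequences were printed for the promoter sites of Neurod1, Neurod2 and Neurod6. That of Bhlhe22, without an entry in the promoter table, was not printed. Distal sites common to E18.5 and P0 were chosen for printing after their values were seen. UTR bases were left out.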

Additional observations from a re-analysis of the deposited data

How the results depend on the processing

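The overlap of E18.5 with P0 sites at the members was 90.9% with a stricter rule (50% of the narrower site shared) or with sites within 500 bp counted, and 87.5% for sites at or above their list's median width. The overlap of P0 with E18.5 sites was between 36.4 and 51.5%. No adult HET site overlapped a P0 site under any of these rules. With sites within 500 bp counted, 37.5% of adult WT sites (3 of 8) met a P0 site, against 13.2% of all WT sites, which was not tested.

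The counts depended on the window and on width. With 50 kb on each side there were 18 sites at E18.5 and 11 in adult HET, and with 5 kb there were 1 in adult HET, at 1 gene, and 4 in adult WT, at 3 genes. Keeping sites at or above the list median left 18 sites at P0, 2 in adult HET at 2 genes and 3 in adult WT at 3 genes. Within 1 kb of a start, 0 genes had an adult WT site. AAAGTT was found within 250 bp of the midpoint in 5 E18.5, 16 P0 and 2 adult HET sites (36.3, 35.1 and 38.6% of all sites), and in whole sites in 8 E18.5 and 16 P0 sites (44.3 and 27.4% of all). Wider windows hold more letters.

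No paired analysis was possible because each list merges its libraries, and for the same reason no replicate was left out. The lack of depth and heights limits every count.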
